A study of Mus musculus with 2 samples.

Results

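The NR4A receptors and immediate early genes are 10 of the 18159 gene symbols listed for jejunal muscle wall (tunica muscularis) with and without smooth muscle *Dnmt1*, the maintenance DNA methyltransferase gene. They were taken by symbol: the receptors *Nr4a1*, *Nr4a2* and *Nr4a3*, the AP-1 subunits *Fos*, *Fosb*, *Jun* and *Junb*, and *Egr1*, *Ier2* and *Atf3*. All 10 symbols were listed and all were above 0 FPKM (fragments normalised for transcript size and sequencing yield, so that levels of different genes can be compared) in both libraries. The tissue was the muscle wall of the jejunum, peeled from the mucosa of C57BL/6 mice aged 15 days, and 1 mRNA library was sequenced per genotype from male and female mice. The strain label of both samples gives a Myh11-cre,-EGFP transgene together with Dnmt1lox/lox, a cross in which the *Myh11* promoter drives Cre and EGFP in smooth muscle cells, and whether RNA of several mice was pooled is not stated. As the study describes its mice, *Dnmt1*-WT animals carry the Cre-eGFP transgene as well, and *Dnmt1*-KO mice have lost the floxed part of *Dnmt1* in the cells that express Cre. Other cells of the muscle wall keep the gene. The free-text description of both samples names the knockout genotype, and the groups used here follow the title and the genotype label. *Dnmt1* itself stood at 11.6 FPKM in *Dnmt1*-WT muscle and 7.58 FPKM in *Dnmt1*-KO muscle, values that take in every exon and every cell type. With 1 library per genotype there is no spread between replicates, no difference below has a replicate check in these libraries, and no p-value is given. The study itself measured some of these genes by quantitative PCR in replicate samples. It reports *Nr4a1* higher, and *Dnmt1*, *Srf* and *Myh11* lower, in *Dnmt1*-KO muscle wall and in sorted *Dnmt1*-KO smooth muscle cells. The read count behind each value is not given. Of the 8 smooth muscle markers listed, all 8 were present and lower in *Dnmt1*-KO muscle, beside 49.1% of all genes above 0 FPKM in both libraries, and 3 were at most halved, beside 4.98%. Among the 8, *Myh11* was at 2685 FPKM in *Dnmt1*-WT and 1256 FPKM in *Dnmt1*-KO.

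Immediate early genes are switched on within minutes of a stimulus such as a growth factor, calcium entry, stretch or stress, without new protein synthesis. Serum response factor (SRF) with its ternary complex partners, and the cAMP response element binding protein CREB, are among the factors that carry the signal to their promoters. Many encode transcription factors. FOS and JUN proteins pair through leucine zippers to form AP-1, EGR1 is a zinc finger factor, ATF3 is a stress-induced relative of the CREB family, and the NR4A proteins are orphan nuclear receptors, NR4A1 being linked to apoptosis and to restraint of smooth muscle growth. IER2 is a small nuclear protein of the same early response.

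The bases before the annotated starts of the NR4A genes are shown because the study addresses DNA methylation and because these windows share a short sequence. Windows of 250 bases before the start were read from RefSeq (GRCm38.p6) for the 8 of the 10 genes that matched. *Egr1* and *Ier2* are named only. Every match to TGACG, the core of the cAMP response element (CRE), on either strand (TGACG or CGTCA) is in capitals. The windows are *Nr4a1* on the plus strand at chr15:101266596-101266845, *Nr4a2* on the minus strand at chr2:57124004-57124253, the first 98 bases of the *Nr4a3* window on the plus strand at chr4:48045055-48045152, and, for comparison, *Fos* on the plus strand at chr12:85473640-85473889. Each run is written 5′ to 3′ on the strand of its gene and holds no exon of GENCODE release M21. The *Nr4a1* window lies in an intron of longer *Nr4a1* transcripts, those of *Nr4a2* and *Fos* lie outside annotated genes, and the rest of the *Nr4a3* window is exonic in that annotation and not shown, with 1 of its 4 matches.
Nr4a1: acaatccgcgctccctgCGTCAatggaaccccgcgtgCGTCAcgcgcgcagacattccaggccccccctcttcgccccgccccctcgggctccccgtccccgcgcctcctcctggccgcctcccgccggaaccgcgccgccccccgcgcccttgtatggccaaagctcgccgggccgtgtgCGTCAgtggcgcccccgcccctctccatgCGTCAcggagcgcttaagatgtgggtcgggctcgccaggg
Nr4a2: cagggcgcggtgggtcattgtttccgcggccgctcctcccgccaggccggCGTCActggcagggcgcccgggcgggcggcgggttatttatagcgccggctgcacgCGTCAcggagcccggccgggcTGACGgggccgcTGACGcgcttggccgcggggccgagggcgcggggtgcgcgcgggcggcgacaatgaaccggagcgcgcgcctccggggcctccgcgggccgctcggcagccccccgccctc
Nr4a3: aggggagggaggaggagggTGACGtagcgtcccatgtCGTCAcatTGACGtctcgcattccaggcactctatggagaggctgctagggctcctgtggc
Fos: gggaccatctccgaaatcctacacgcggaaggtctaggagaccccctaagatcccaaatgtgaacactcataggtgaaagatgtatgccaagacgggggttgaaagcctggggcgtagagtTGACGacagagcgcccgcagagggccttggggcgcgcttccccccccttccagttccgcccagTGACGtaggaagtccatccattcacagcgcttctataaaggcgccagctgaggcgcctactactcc

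Each of the 3 NR4A windows held 4 copies of the CRE core. *Fos* held 2 copies, *Fosb*, *Junb* and *Atf3* held 1 each, and *Jun* held none. At least 1 copy was present in 17.8% of the 32851 RefSeq windows of the same length, and 4 or more in 45 of them, or 0.137%. The limit of 4 was set after the windows had been read. The full palindrome TGACGTCA, the CArG box bound by SRF, the AP-1 site TGAGTCA or TGACTCA, and the NR4A site AAAGGTCA were found in none of the 8 windows on either strand, against 1.55%, 1.47%, 4.46% and 1.34% of all windows. These sites were searched only as fixed patterns and only within the windows. Sites farther upstream, and sites that differ from the patterns, were not looked for. The lack of a match therefore does not show that a gene, *Fos* included, lacks such a site. GGGCGG, the GC box, was found in 7 of the 8 windows, all but *Junb*, against 32.7% of all windows. The EGR site, searched as GCGGGGGCG or GCGTGGGCG on both strands, was found in *Nr4a1* and *Fosb*, in each case overlapping a GC box, against 3.06% of all windows. CCGGAA, a core bound by ETS factors, was found in *Nr4a1* alone, against 12.0%. TATAAA was found in *Fos* on the strand of the gene and in *Nr4a2* on the opposite strand, against 12.4% of all windows on either strand. The GC box and the ETS core were likewise counted on either strand.

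The windows were rich in CpG, the dinucleotide that DNMT1 methylates. The lowest CpG count was 15, in *Fos* and *Jun*, and the highest 44, in *Nr4a2*, where 99.5% of all windows held fewer. The *Nr4a1* window held 34 CpG and that of *Nr4a3* 18. The median was 19.5 over the 8 windows and 6 over all windows. The CRE core and the GC box each contain a CpG, and the shares of all windows given above were not matched for CpG count. Methylation was not analysed here.

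**Figure D1:**
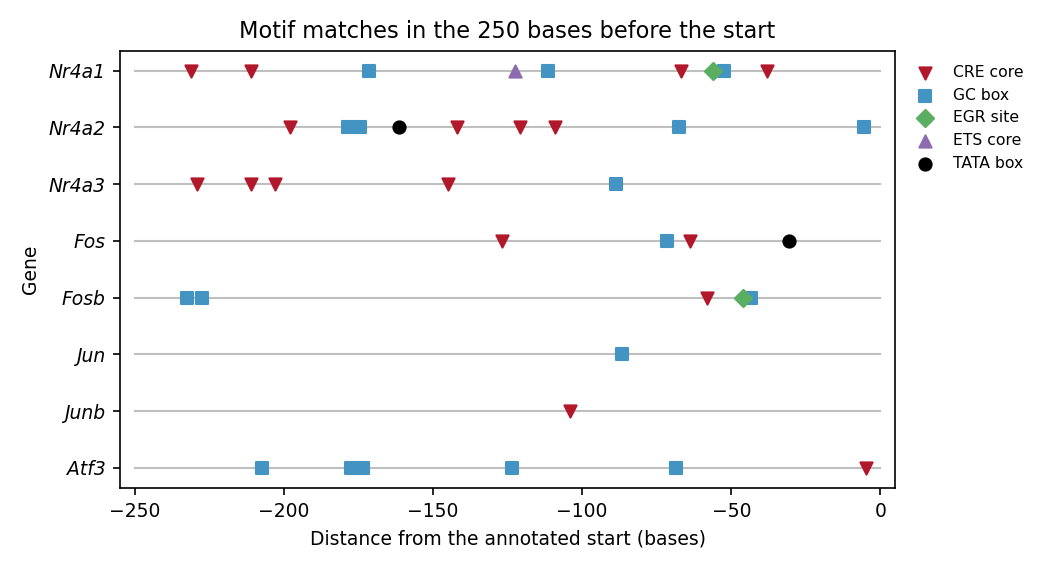
Positions of motif matches (symbols) along the 250 bases before the annotated start of 8 genes, one line per gene, with the distance from the start in bases on the x axis. The 3 NR4A lines each carry 4 CRE cores (red), and the other 5 lines carry between 0 and 2.

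Of the 10 genes, 3 at least doubled in *Dnmt1*-KO muscle: *Atf3*, *Nr4a3* and *Nr4a1*. Without rescaling none was halved, and *Fos* came nearest to it. With the FPKM sums of the libraries set equal, *Fos* passed that limit, at 0.475. Across all 16102 genes above 0 FPKM in both libraries, a doubling or more was seen for 11.8%, a halving or more for 4.98% and a ratio of 4 or more for 4.25%. Of the 12758 genes at 1 FPKM or more in both libraries, a level that all 10 genes reached, the shares were 5.53%, 2.82% and 1.18%. The limit of 4 was chosen after the values were seen, and *Atf3*, *Nr4a3* and *Nr4a1* were past it. With 1 FPKM added to each value, *Nr4a3* fell below it, at 3.25. The 10 genes differed widely among themselves. The median log2 ratio of FPKM + 0.1 was 0.20 for the 10 genes, against 0.02 for the 17585 genes above 0 in at least 1 library, and single ratios ran from 0.509 to 6.17. The median of the 10 genes depended on the setting. It was 0.10 with the FPKM sums set equal, and 0.43 for those at 5 FPKM or more in 1 library.

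**Figure D2:**
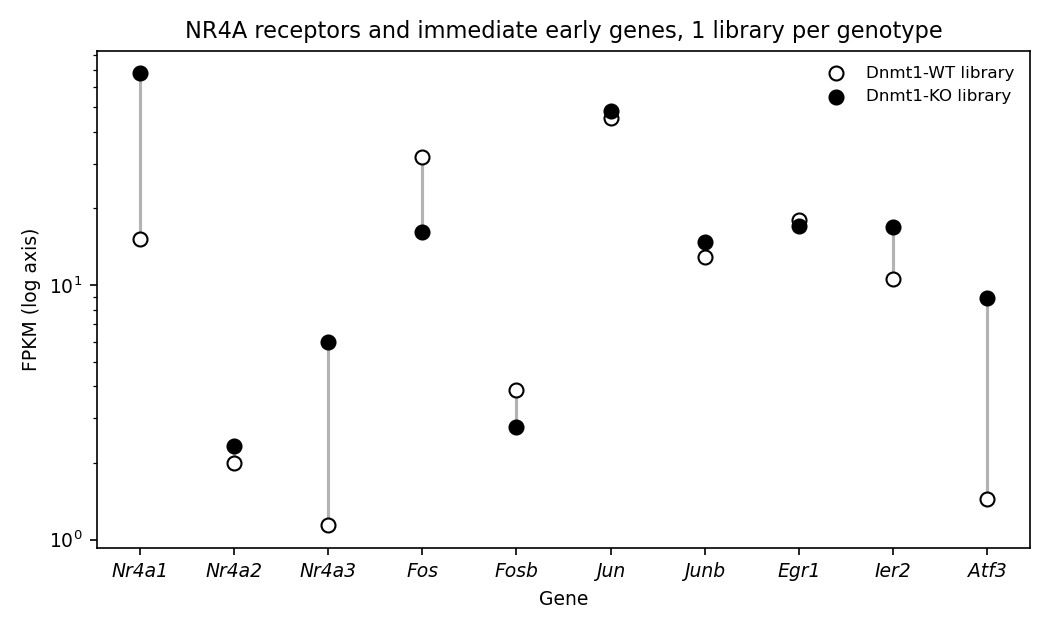
FPKM of the 10 genes on a log axis, with an open circle for the *Dnmt1*-WT library, a filled circle for the *Dnmt1*-KO library and a line joining them. *Nr4a1*, *Nr4a3* and *Atf3* have the filled circle far above the open one, *Fos* has it far below, and *Jun*, *Egr1*, *Junb* and *Nr4a2* have the circles close together.

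*Nr4a1*, which encodes the orphan nuclear receptor NUR77, was listed at 15.2 FPKM in *Dnmt1*-WT muscle and 67.8 FPKM in *Dnmt1*-KO muscle, a ratio of 4.47. It moved from place 4714 to place 1009 among the 18159 symbols ordered by FPKM, and from the fourth to the highest of the 10 genes. A higher ratio was found for 566 of the 16102 genes. In absolute terms *Nr4a1* gained 52.6 FPKM, the most of the 10 genes. The gene lies on chromosome 15 of GRCm38 from 101254269 to 101274795 on the plus strand.

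*Nr4a3*, which encodes NOR1, was listed at 1.14 FPKM in *Dnmt1*-WT muscle, the lowest of the 10 genes, and at 5.95 FPKM in *Dnmt1*-KO muscle. Its ratio was 5.22. This is a gain of 4.81 FPKM, so the plain ratio of *Nr4a3* was above that of *Nr4a1* although its gain in level was much smaller. With 1 FPKM added to each value the order turned, at 3.25 for *Nr4a3* and 4.255 for *Nr4a1*. *Nr4a3* lies on chromosome 4 from 48045153 to 48086447 on the plus strand.

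*Nr4a2*, which encodes NURR1, was listed at 2.01 FPKM in *Dnmt1*-WT muscle and 2.33 FPKM in *Dnmt1*-KO muscle, a ratio of 1.16. It thus stayed below a doubling while both its paralogs passed a ratio of 3, and it became the lowest of the 10 genes in *Dnmt1*-KO muscle. *Nr4a2* lies on chromosome 2 from 57106830 to 57124003 on the minus strand. Its window before the start, printed above, holds 4 CRE cores, as many as those of the other receptors.

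Summed over the 3 receptors, NR4A expression was 18.3 FPKM in *Dnmt1*-WT muscle and 76.1 FPKM in *Dnmt1*-KO muscle. *Nr4a1* made up 82.8% of the sum in *Dnmt1*-WT and 89.1% in *Dnmt1*-KO. The share of *Nr4a2* was 11.0% and 3.06%, and that of *Nr4a3* 6.22% and 7.82%. The summed level is therefore mostly that of *Nr4a1* in both genotypes.

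*Atf3*, which encodes a transcription factor induced by many forms of cell stress, had the highest plain ratio of the 10 genes, 6.17. It was listed at 1.44 FPKM in *Dnmt1*-WT muscle and 8.89 FPKM in *Dnmt1*-KO muscle. With 1 FPKM added to each value, the ratio of *Atf3* was 4.05, below the 4.255 of *Nr4a1*. Of the 16102 genes, 350 had a higher ratio. *Atf3* lies on chromosome 1 from 191170296 to 191218039 on the minus strand, and *Gm24748*, annotated as a miscellaneous RNA on the opposite strand, overlaps 108 bases of its span. It is also one of the 2 genes among the 10 with more transcript variants in *Dnmt1*-KO muscle, 2 against 1. The other was *Fosb*, with 3 against 2, and the remaining 8 genes had equal numbers. Across the 16102 genes, 12.5% had more variants in *Dnmt1*-KO muscle.

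*Fos*, the founding FOS subunit of AP-1 and a classical SRF target, went the other way. It was listed at 31.8 FPKM in *Dnmt1*-WT muscle and 16.2 FPKM in *Dnmt1*-KO muscle, a ratio of 0.509 and thus just short of a halving. A lower ratio was found for 5.23% of the 16102 genes. *Fos* moved from the second to the fifth place among the 10 genes, and lies on chromosome 12 from 85473890 to 85477273 on the plus strand. *Fosb*, its paralog on chromosome 7 from 19302696 to 19310051, was listed at 3.87 FPKM and 2.78 FPKM, a ratio of 0.718. Both FOS genes were lower in *Dnmt1*-KO muscle, and their sum was 35.7 FPKM in *Dnmt1*-WT and 19.0 FPKM in *Dnmt1*-KO.

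The JUN subunits differed little between the libraries. *Jun* was listed at 45.3 FPKM in *Dnmt1*-WT muscle, the highest of the 10 genes there, and at 48.2 FPKM in *Dnmt1*-KO muscle, a ratio of 1.06 that fell to 0.992 when the FPKM sums of the libraries were set equal. *Junb* was listed at 12.9 FPKM and 14.7 FPKM, a ratio of 1.14. *Jun* lies on chromosome 4 from 95049034 to 95052222 and *Junb* on chromosome 8 from 84974484 to 84978718, both on the minus strand. Genes on the opposite strand overlap both, *Junos* by 689 bases of *Jun* and *Prdx2*, at 159 FPKM in *Dnmt1*-WT and 177 FPKM in *Dnmt1*-KO, by 351 bases of *Junb*. The sources used here do not say whether strand was used in the quantification, so reads from these overlaps, and from that of *Atf3*, cannot be assigned with certainty.

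The level of FOS relative to JUN genes was lower in *Dnmt1*-KO muscle. *Fos* stood at 0.703 of the level of *Jun* in *Dnmt1*-WT muscle and at 0.337 in *Dnmt1*-KO muscle. The sum of *Fos* and *Fosb* was 0.613 of the sum of *Jun* and *Junb* in *Dnmt1*-WT and 0.302 in *Dnmt1*-KO. The other genes of the FOS and JUN families moved less far or the other way. *Fosl2*, which encodes the FOS relative FRA2, was listed at 14.2 FPKM and 22.4 FPKM, a ratio of 1.58, and *Jund* at 90.2 FPKM and 103 FPKM, a ratio of 1.14. *Fosl1* was listed at 0 in *Dnmt1*-WT and at 0.08 FPKM in *Dnmt1*-KO. With these included, the FOS sum was 0.336 of the JUN sum in *Dnmt1*-WT and 0.25 in *Dnmt1*-KO. The share of *Fos* in the sum of the 4 FOS genes was 63.8% in *Dnmt1*-WT and 39.1% in *Dnmt1*-KO, and that of *Fosl2* 28.4% and 54.0%, so that *Fosl2* had the higher level of the pair in *Dnmt1*-KO muscle.

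*Egr1*, which encodes a zinc finger transcription factor and is also a classical SRF target, was listed at 18.0 FPKM in *Dnmt1*-WT muscle and 17.0 FPKM in *Dnmt1*-KO muscle. Its ratio was 0.948, and it held the third place among the 10 genes in both libraries. Its paralogs were far lower. *Egr2* was listed at 0.05 FPKM in *Dnmt1*-WT and 0.48 FPKM in *Dnmt1*-KO, *Egr3* at 0.20 FPKM and 0.21 FPKM, and *Egr4* at 0.06 FPKM and 0.25 FPKM. All of these values are under 0.5 FPKM, in a table whose lowest value above 0 is 0.03 FPKM. *Ier2*, on chromosome 8 from 84661331 to 84662852 on the minus strand, was listed at 10.5 FPKM and 16.9 FPKM, a ratio of 1.61, the highest among the 7 genes that stayed below a doubling.

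Taken by sum, *Nr4a1*, *Nr4a3* and *Atf3* went from 17.8 FPKM in *Dnmt1*-WT muscle to 82.6 FPKM in *Dnmt1*-KO muscle. The other 7 genes together went from 124 FPKM to 118 FPKM. NR4A transcripts made up 12.9% of the summed level of the 10 genes in *Dnmt1*-WT and 37.9% in *Dnmt1*-KO. *Fos* stood at 2.10 times the level of *Nr4a1* in *Dnmt1*-WT muscle, and *Nr4a1* at 4.18 times the level of *Fos* in *Dnmt1*-KO muscle.

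**Figure D3:**
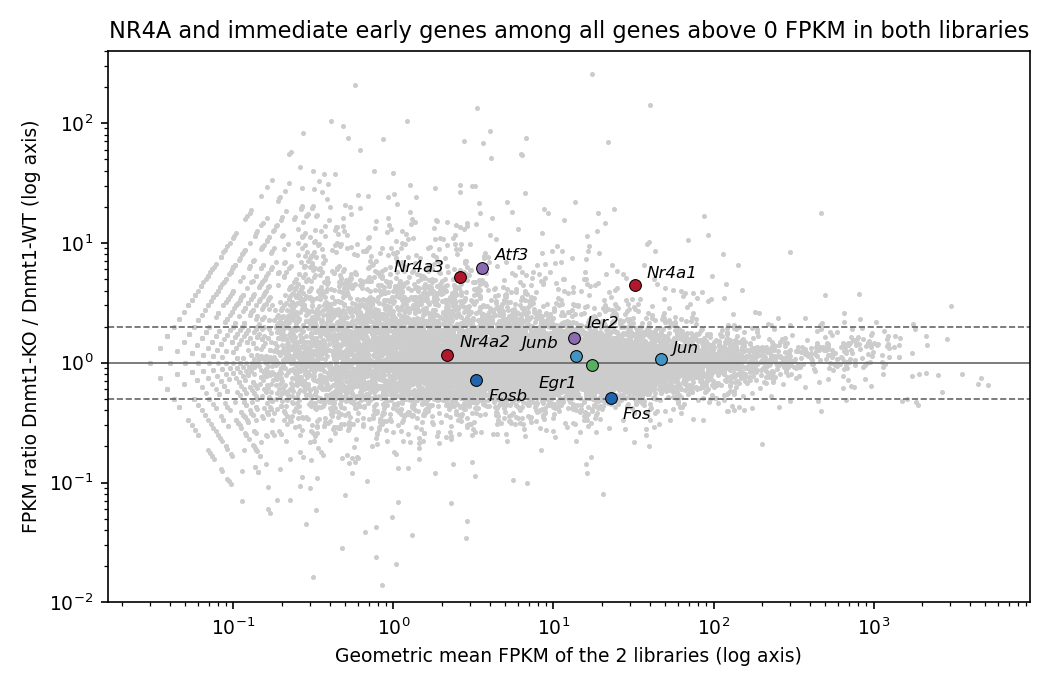
FPKM ratio of *Dnmt1*-KO to *Dnmt1*-WT (log axis) against the geometric mean FPKM of both libraries (log axis) for the 16102 genes above 0 in both (grey), with the 10 genes coloured by family (NR4A red, FOS dark blue, JUN light blue, *Egr1* green, *Ier2* and *Atf3* purple) and dashed lines at ratios of 2 and 0.5. *Nr4a1*, *Nr4a3* and *Atf3* lie above the upper line, *Fos* lies just above the lower line, and the other 6 lie between.

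Immediate early genes are often compact, and the 10 genes were compared on this feature in GENCODE release M21. The median span was 6259 bases for the 10 genes and 22807 bases for the 16039 protein-coding genes of the table that matched. *Jun*, *Junb* and *Ier2* have a single exon, and *Ier2* is the shortest at 1522 bases. By this span, which runs over all annotated transcripts of a gene, the 3 genes that at least doubled were among the longer ones. The starts used for the windows of *Nr4a1* and *Atf3* lie well inside their spans. Counted from those starts both genes are shorter, so the order by length depends on the start chosen. *Atf3* spans 47744 bases, *Nr4a3* 41295 bases and *Nr4a1* 20527 bases, and these, with *Nr4a2* at 17174 bases, are the longest of the 10. The longest of the remaining 6 is *Fosb*, at 7356 bases.

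A further 50 immediate early genes show how the wider response stood. Of the 49 above 0 FPKM in both libraries, 15 at least doubled and 1 was at most halved, beside 11.8% and 4.98% of all genes, and 38 had a ratio above 1, beside 50.3% of all genes. *Egr2* and *Egr4*, at the low levels given above, are among the 15. Of the 38 with at least 5 FPKM in 1 library, 10 at least doubled, beside 6.08% of all genes at that level. The median log2 ratio of FPKM + 0.1 over the 50 genes was 0.40. The highest ratios at that level were those of *Maff*, a small MAF bZIP factor, 2.65 FPKM in *Dnmt1*-WT and 15.1 FPKM in *Dnmt1*-KO, and *Cyr61*, a matricellular protein gene, 19.0 FPKM and 94.4 FPKM. *Nfil3*, a bZIP repressor gene, was listed at 3.96 FPKM and 15.4 FPKM, and *Ctgf*, which encodes a relative of CYR61, at 34.2 FPKM and 130 FPKM. The lowest was *Rgs2*, a regulator of G-protein signalling, at 32.7 FPKM and 15.7 FPKM, a ratio of 0.479. *Zfp36*, which encodes an mRNA decay factor, followed with 36.9 FPKM and 29.8 FPKM, and *Ier3* with 47.1 FPKM and 41.6 FPKM. As among the 10 genes, ratios within this list ran in both directions.

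The factors that act on immediate early promoters showed no gene past either limit. Of 7 SRF, ternary complex and myocardin-related factors, 0 doubled, 0 were halved and 4 had a ratio above 1, beside the 11.8%, 4.98% and 50.3% of all genes. *Srf* had the lowest ratio, 0.583, with 94.6 FPKM in *Dnmt1*-WT and 55.2 FPKM in *Dnmt1*-KO, and *Myocd*, its smooth muscle coactivator, was listed at 29.1 FPKM and 18.2 FPKM. The ternary complex factors *Elk1*, *Elk3* and *Elk4* were at 10.1, 8.21 and 7.52 FPKM in *Dnmt1*-WT and 8.05, 11.5 and 7.78 FPKM in *Dnmt1*-KO. *Mkl1* and *Mkl2*, coactivators of SRF that respond to actin, had ratios of 1.21 and 1.46. Of 7 CREB genes, 6 had a ratio below 1, beside 49.1% of all genes, and *Crem* had a ratio of 1.18. *Creb1* was lowest, at 8.54 FPKM and 5.21 FPKM, a ratio of 0.610, and *Atf1*, *Atf2*, *Crtc1*, *Crtc2* and *Crtc3* lay between 0.681 and 0.976.

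**Figure D4:**
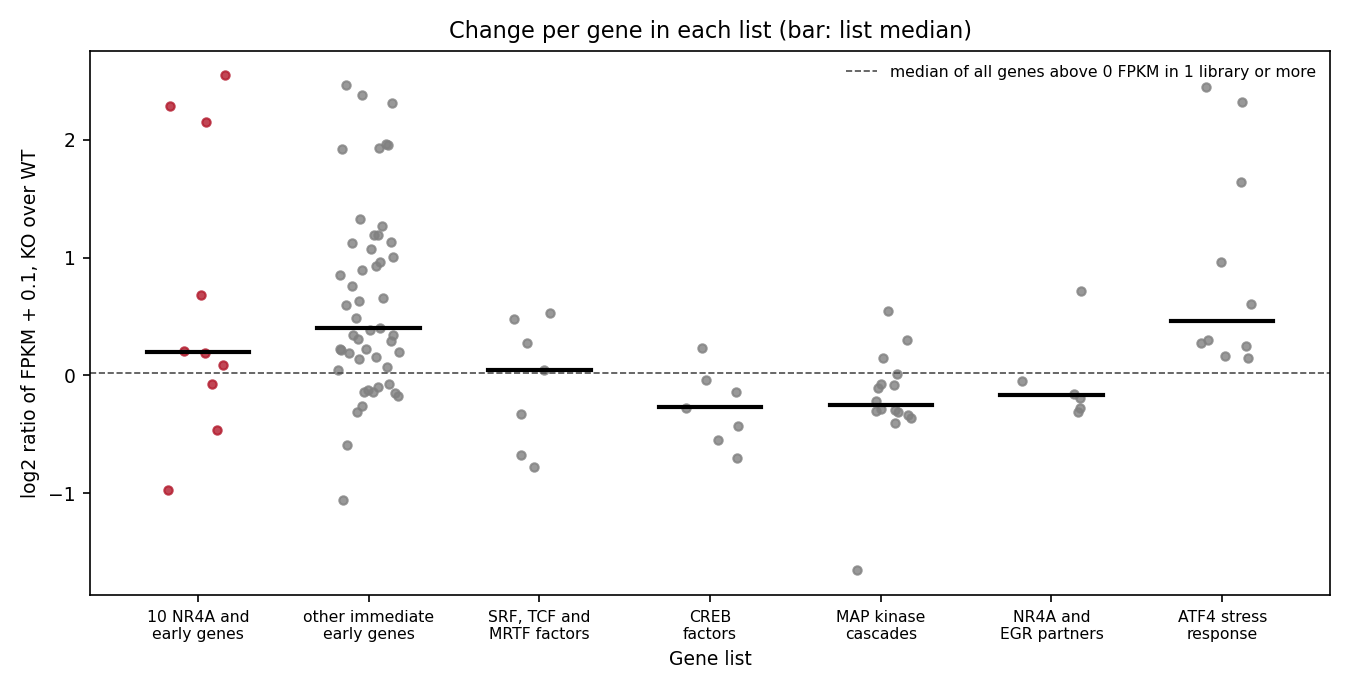
Log2 ratio of FPKM + 0.1, *Dnmt1*-KO over *Dnmt1*-WT, for each gene (points) of 7 lists, with a bar at each list's median and a dashed line at 0.02, the median of all genes above 0 in at least 1 library. The 10 NR4A and early genes (red) fall into a group of 3 above 2 and a group of 7 between -1 and 1.

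Genes of other cell types differed between these libraries as well, and the counts below stand beside 11.8% of all genes at least doubled and 4.98% at most halved. All 8 leukocyte markers at least doubled, and their summed level was 37.7 FPKM in *Dnmt1*-WT and 152 FPKM in *Dnmt1*-KO, with *Ptprc* at 0.80 FPKM and 2.71 FPKM and *Cd52* at 5.14 FPKM and 25.9 FPKM. Of 9 macrophage markers, 8 at least doubled, the sum was 146 FPKM and 510 FPKM, and *Emr1* and *Csf1r* were listed at 3.79 FPKM and 7.75 FPKM and at 14.8 FPKM and 26.2 FPKM. The sum of the 7 adipocyte markers was 110 FPKM and 1205 FPKM, with *Adipoq* at 0.85 FPKM and 46.7 FPKM, *Fabp4* at 104 FPKM and 875 FPKM, and *Lep* listed at 0 in *Dnmt1*-WT. All 5 endothelial markers at least doubled, from a sum of 39.7 FPKM to 100 FPKM. *Pecam1* among them was at 15.8 FPKM and 38.8 FPKM, and *Cdh5* at 14.0 FPKM and 28.4 FPKM. The 7 enterocyte markers had a ratio of sums of 2.01, with *Vil1* at 6.78 FPKM and 11.8 FPKM and *Fabp2* at 38.8 FPKM and 85.1 FPKM. Of these 7, 2 at least doubled and 1 was at most halved, *Sis*, at 1.93 FPKM and 0.51 FPKM, and most of the sum was *Apoa4*, at 208 FPKM and 434 FPKM. The 5 fibroblast markers had a ratio of 1.57, with *Pdgfra* at 69.0 FPKM and 40.7 FPKM and *Col1a1* at 700 FPKM and 1518 FPKM. The 6 enteric neuron markers had a ratio of 1.16 (*Elavl4* 27.4 FPKM and 22.9 FPKM, *Uchl1* 228 FPKM and 283 FPKM), and the 4 enteric glia markers summed to 59.2 FPKM and 88.9 FPKM (*S100b* 12.7 FPKM and 13.6 FPKM), 1 of them, *Gfap*, with a ratio of 7.40. For interstitial cells of Cajal, *Kit* was at 39.0 FPKM and 38.1 FPKM and *Ano1* at 36.4 FPKM in *Dnmt1*-KO, a ratio of 0.809. The ratio for the 8 smooth muscle markers was 0.724, with *Acta2* at 5408 FPKM and 4016 FPKM. Many of these cell types can express immediate early genes, and the part of cell composition in the FPKM values of the 10 genes was not tested here. For *Nr4a1*, the study reports a higher level in sorted *Dnmt1*-KO smooth muscle cells by quantitative PCR. In bulk tissue, fewer cells of a type and less RNA per cell cannot be told apart.

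**Figure D5:**
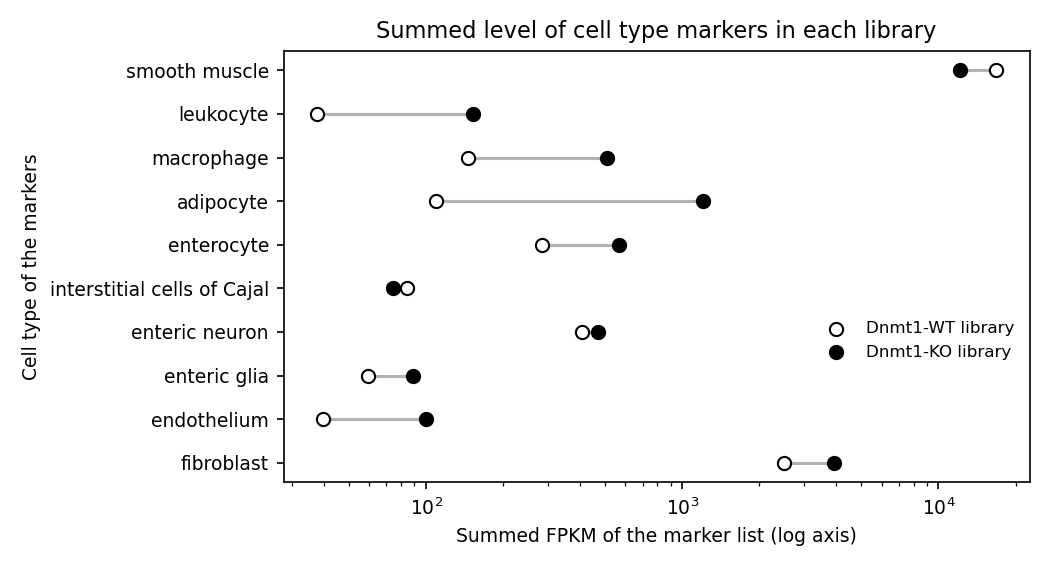
Summed FPKM (log axis) of the markers of 10 cell types in *Dnmt1*-WT muscle (open circles) and *Dnmt1*-KO (filled circles). The sum of the smooth muscle markers is lower in *Dnmt1*-KO, and the sums of the leukocyte, macrophage, adipocyte, endothelial and enterocyte markers are more than doubled.

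The 3 genes nearest to *Nr4a1* by level in both libraries, measured as the distance of log2(FPKM + 0.1) over these 2 samples, were *Hspa1b*, *Serpinf1* and *Sst*, at distances of 0.285, 0.296 and 0.310. *Hspa1b*, a heat shock protein gene, was at 16.6 FPKM in *Dnmt1*-WT and 56.9 FPKM in *Dnmt1*-KO, *Serpinf1*, a secreted serpin gene, at 12.5 FPKM and 63.8 FPKM, and *Sst*, the somatostatin gene, at 18.7 FPKM and 64.1 FPKM. With 2 samples this likeness rests on 2 values per gene.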

How the data were processed

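RNA of the jejunal tunica muscularis at 15 days was sequenced in 1 library per genotype. The authors used the TruSeq RNA kit and mapped reads to GRCm38/mm10, and the submitters' processing notes name TopHat 1.4.1 and Cufflinks 2.0.2. The authors deposited FPKM per gene symbol, the number of transcript variants per library (not read counts), and a ratio of their own that was not used. Whether RNA was pooled, and whether strand was used, is not given in the sources used here. FPKM summed to 429698 in *Dnmt1*-WT and 460845 in *Dnmt1*-KO. The study reports mapped reads per library but read counts per gene are not given, so no interval is given.

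Ratios are plain ratios of FPKM without rescaling. A ratio of 2 or more was counted as at least doubled and of 0.5 or less as at most halved. Medians of lists used log2(FPKM + 0.1). With 1 library per genotype no test was run, and counts are read beside the share over all genes. The gene sets and lists were chosen with earlier results of these data known. Named genes were all 10 genes, *Dnmt1*, the SRF and CREB factors, the 4 highest and 3 lowest ratios of each further list at 5 FPKM or more in 1 library, the first 2 markers of the cell types, and the 3 genes nearest to *Nr4a1*. Some genes that this rule names are not reported here. *Fosl1*, *Fosl2*, *Jund*, *Egr2*, *Egr3*, *Egr4*, *Trib3*, *Chac1*, *Lep*, *Gfap*, *Sis*, *Apoa4* and *Prdx2* were named after their values were seen. Coordinates and exons came from GENCODE release M21 (GRCm38), and windows before starts from RefSeq (GRCm38.p6). Counting past a fold was tested on simulated data. Alternatives were 3 scalings, other pseudocounts, filters and folds. Python 3.11.15, numpy 2.4.6, pandas 2.3.3 and matplotlib 3.10.9 were used.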

Additional observations from a re-analysis of the deposited data

How the results depend on the processing

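*Nr4a1*, *Nr4a3* and *Atf3* stayed past a ratio of 3 under each scaling and pseudocount tried, the count of 3 genes at least doubled held under both filters, and at a limit of 1.5 *Ier2* made it 4. Over the scalings and pseudocounts the ratio of *Nr4a1* ran from 4.17 to 4.56, of *Nr4a3* from 3.25 to 5.33, of *Atf3* from 4.05 to 6.30 and of *Fos* from 0.475 to 0.524. With the FPKM sums set equal, every log2 ratio fell by 0.10, which brought the genes at most halved from 0 to 1, *Fos*, and turned the ratio of *Jun* to 0.992, and no other of the 10 genes changed direction. The median log2 ratio of the 10 genes was 0.22 after median or upper quartile scaling, 0.10 with equal sums, 0.16 with a pseudocount of 1 and 0.43 for genes at 5 FPKM or more in 1 library. For the 50 further immediate early genes it was 0.43, 0.43, 0.30, 0.32 and 0.37 under those settings and 0.39 at 1 FPKM or more in 1 library, and 8 of them had a ratio of 3 or more, beside 6.43% of all genes. No paired analysis was possible because each genotype has 1 library, and none could be left out. Differences between values near 0.03 FPKM, the lowest above 0, carry little weight.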

Other observations

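The 10 genes of the ATF4 stress response, of which *Atf3* is a target, were all higher in *Dnmt1*-KO muscle without rescaling, beside 50.3% of all genes. Of these, 3 at least doubled, beside 11.8% of all genes, and the median log2 ratio of FPKM + 0.1 was 0.46. The highest ratio among those at 5 FPKM or more in 1 library was that of *Sesn2*, a stress-induced regulator of mTORC1, at 1.72 FPKM in *Dnmt1*-WT and 5.59 FPKM in *Dnmt1*-KO. *Asns*, the asparagine synthetase gene, was listed at 13.0 FPKM and 25.4 FPKM, and *Atf5* at 38.0 FPKM and 58.1 FPKM. *Eif2ak2*, the kinase gene for PKR, had a ratio of 1.24. *Ddit3*, which encodes CHOP, had a ratio of 1.19, and *Eif2ak3* and *Ppp1r15a* had ratios of 1.12 and 1.11. The lower *Trib3* and *Chac1* were listed at 0.55 FPKM and 3.14 FPKM and at 0.46 FPKM and 2.96 FPKM. *Atf4* itself, whose control is largely at translation, was at 84.6 FPKM and 102 FPKM.

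The MAP kinase genes that carry signals to immediate early promoters were mostly lower by small amounts. Of 16 genes, 0 doubled, 1 was at most halved and 12 had a ratio below 1, beside 11.8%, 4.98% and 49.1% of all genes. The 1 gene was *Map2k6*, which encodes a kinase of p38, at 7.95 FPKM in *Dnmt1*-WT and 2.46 FPKM in *Dnmt1*-KO, a ratio of 0.309. *Mapk8* followed with 0.751, and the highest were *Nras*, *Map2k3*, *Mapk3* and *Map2k2* with 1.47, 1.23, 1.11 and 1.01. Of 6 partner genes of NR4A and EGR proteins, the highest ratio was 1.65, for the EGR corepressor gene *Nab2*, and the nuclear receptor partner genes *Rxra* and *Rxrb* had ratios of 0.807 and 0.826. *Nab1* and *Bcl2* had ratios of 0.897 and 0.872.

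The CRE core TGACG was also counted before the starts of all genes in the RefSeq table, the NR4A genes included. Of 44 genes with a RefSeq window holding 4 or more copies, 40 were above 0 FPKM in both libraries, and 2 of these at least doubled, *Nr4a1* and *Nr4a3* themselves, and 2 were at most halved. The median log2 ratio of the 40 was -0.21. Of the 3382 such genes with at least 1 copy, 7.30% at least doubled, and of the 8549 with none, 12.3%. The groups were not matched for level or CpG count. The share at least doubled itself depends on level, at 11.8% of all genes above 0 FPKM in both libraries and 5.53% of those at 1 FPKM or more in both. These groups were formed after the windows of the NR4A genes had been read, and the values are a description.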
